A study of Mus musculus with 8 samples.

Results

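The smooth muscle contractile genes described here are Acta2, Actg2, Myh11, Myl9, Mylk, Tagln, Cnn1, Smtn, Lmod1 and Des, which encode the actin and myosin filaments of smooth muscle cells and proteins bound to them. They were chosen by symbol as textbook markers of differentiated smooth muscle. All 10 were found among the 26586 genes of the count table, and all 10 were among the 13873 genes that passed the expression filter and were tested. Their levels are given in each of the 8 libraries of primordial follicles, 4 control and 4 mito-supplemented.

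In the study, mitochondria were added to mouse oocytes at fertilisation and later generations were bred from the offspring. RNA-Seq of primordial follicles from the third generation and from controls addressed whether their transcripts differed. Both groups had the strain background C57Bl/6 x CBA, and the follicles were isolated from ovaries on postnatal day 3. The labels name the libraries biological replicates without saying which came from separate animals or litters, so that p values measure the spread between these libraries. The total counts were 17658559, 13917412, 18219362 and 10370045 in control replicates 1 to 4, against 19760763, 13370911, 16116434 and 13276462 in mito-supplemented replicates 1 to 4. The labels alone define the groups, so every direction depends on those labels. The colour key drawn in a heat map of the paper appears to name the groups the other way round, whereas the caption text names both groups without such an exchange. This was not resolved, and if the labels were exchanged every direction would turn.

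Smooth muscle contracts when calcium and calmodulin activate myosin light chain kinase, which phosphorylates the regulatory light chain and lets smooth muscle myosin pull on actin filaments. The genes of this machinery share control by serum response factor and its partner myocardin, and they are used together as markers of the differentiated state. In the ovary, smooth muscle is known from the walls of vessels, from the hilum and from the outer theca of growing follicles, whereas an oocyte and its flattened pregranulosa cells make up a primordial follicle.

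Some libraries stood apart from the rest before any group was compared. In control replicate 4, the genes Rnr1 and Rnr2 held 74.0% of the counts, against 14.9% to 44.3% in the other 7 libraries, and 2559876 counts lay outside the rRNA genes. Its TMM factor was 0.489, a value that rescales a library for such a shift and which raises its levels in CPM (counts scaled to a common library size). Slc4a1, a red cell membrane protein, had 2504, 1704 and 2999 CPM in control replicates 2 and 3 and in mito-supplemented replicate 1, and at most 47.6 CPM in the other 5. Summed over the 7 red cell markers found in the table, these 3 libraries had 4012, 2682 and 4952 CPM, and the other 5 had 14.1 to 79.0 CPM. The leukocyte markers, with Lyz2 as the most abundant and C1qb at 0 in all libraries, were highest in the same 3 libraries, at 131, 115 and 738 CPM against 7.47 to 21.1 CPM. The 3 libraries came from both groups, and their whole profiles correlated at r = 0.886 to 0.920 across genes, where genes do not count as independent replicates. Mito-supplemented replicates 2 and 3 correlated as closely (r = 0.919), and the remaining pairs of libraries at 0.622 to 0.853.

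The labelled cell type was checked against markers of its cells. Oocyte markers summed to 1264, 62.9, 45.5 and 286 CPM in control replicates 1 to 4, and to 133, 88.4, 353 and 59.2 CPM in mito-supplemented replicates 1 to 4, with the zona pellucida gene Zp2 as the most abundant over all libraries together. In control replicate 3 and mito-supplemented replicate 1, Zp2 lay below Nobox and Ddx4. The most abundant gene of each other list is likewise given over all libraries together and can differ within a library. Granulosa markers summed to 150.3, 80.2, 153 and 294 CPM in the controls and 96.5, 196, 311 and 249 CPM in the mito-supplemented libraries, with Kitl as the most abundant. Oocyte and granulosa RNA was therefore present in each library, in proportions that varied widely within both groups. The smooth muscle contractile genes together had 77.9, 84.4, 143 and 647 CPM in control replicates 1 to 4, and 132, 194, 291 and 768 CPM in mito-supplemented replicates 1 to 4. They were highest in replicate 4 of each group, at levels far above the other 3 libraries of that group, and the groups overlapped. In these bulk samples, fewer cells of a type and less RNA per cell cannot be told apart.

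Acta2 encodes the smooth muscle alpha actin of vessels, which pericytes and myofibroblasts also make. Its level was 4.27, 9.99, 23.7 and 50.3 CPM in control replicates 1 to 4, and 20.8, 26.5, 42.5 and 126 CPM in mito-supplemented replicates 1 to 4. The lowest values were in control replicates 1 and 2 and the highest in mito-supplemented replicate 4, and the control range covered 3 of the 4 mito-supplemented values. The control mean was 22.1 ± 20.5 CPM and the mito-supplemented mean 53.9 ± 48.8 CPM (SD, n = 4 each). Its log2 fold change was 1.30, with a standard error of 0.80 and an adjusted p value of 0.697 in edgeR's quasi-likelihood test, so that the difference was not past the spread between libraries. Leaving out mito-supplemented replicate 4 gave 0.47, and leaving out control replicate 4 gave 2.10. This gene lies on the minus strand of chromosome 19 of GRCm38, from 34241090 to 34255590.

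The CArG box is the site that serum response factor binds. Among the members with promoter sequence, Myl9 had an exact match, and Myl9 and Acta2 had matches with 1 departure. The sites are shown for this reason, with 10 bases on either side. Promoter sequence from RefSeq (GRCm38.p6), from 250 bases before the start to 50 after it, matched 7 of the 10 members, and Myh11, Tagln and Actg2 had no entry and were not searched. The CArG box, with CC and GG around 6 letters that are A or T, was searched on both strands, with an exact match and with 1 departure inside the 6 letters. The capitals mark the match, and each site is written 5′ to 3′ on the strand of its gene.
Acta2 at chr19:34255438-34255467, minus strand, 84 bases before the start, 1 departure: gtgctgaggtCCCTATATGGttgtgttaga
Acta2 at chr19:34255388-34255417, minus strand, 34 bases before the start, 1 departure: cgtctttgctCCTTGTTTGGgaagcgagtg
Myl9 at chr2:156775293-156775322, plus strand, 161 bases before the start, exact: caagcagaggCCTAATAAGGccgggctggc
Myl9 at chr2:156775355-156775384, plus strand, 99 bases before the start, 1 departure: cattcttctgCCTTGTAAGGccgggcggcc
Both Acta2 sites lie within an exon of the longer GENCODE M21 annotation, and both Myl9 sites lie upstream of the annotated exons. An exact CArG box was in 1 of the 7 member promoters and in 1.63% of 32851 promoters of this length. A match with at most 1 departure, exact matches included, was in 2 of the 7 and in 9.98% of all. The letters CATTCC, bound by factors of the TEAD family, were in the promoters of Acta2, Mylk, Smtn and Lmod1, outside the CArG matches, and in 14.7% of all, and TATAAA was in 0 of the 7 and in 13.6% of all. These matches describe the letters in the window and do not show binding.

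Actg2 encodes the gamma actin of visceral smooth muscle, such as that of the gut and the genital tract. Its level was 6.40, 0.0793, 0.172 and 39.9 CPM in control replicates 1 to 4, and 0.728, 1.11, 1.36 and 35.5 CPM in mito-supplemented replicates 1 to 4. It was high in replicate 4 of each group and intermediate in control replicate 1, and near 0 in control replicates 2 and 3, which held 1 and 3 counts. The 95% Poisson intervals of these counts were 0.0253 to 5.57 and 0.619 to 8.77 counts, and such intervals cover counting error alone, because reads copied from a molecule by amplification count repeatedly. The control mean was 11.6 ± 19.1 CPM and the mito-supplemented mean 9.68 ± 17.2 CPM (SD, n = 4 each). For Actg2, the log2 fold change was -0.25 (95% confidence interval -4.01 to 3.52), the widest interval of the 10 members. It became 2.13 without control replicate 4, and 0.17, 0.13 and 0.15 without mito-supplemented replicates 1, 2 and 3. Without mito-supplemented replicate 4 it was -3.39, so that its sign depended on which library was left out.

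**Figure D1:**
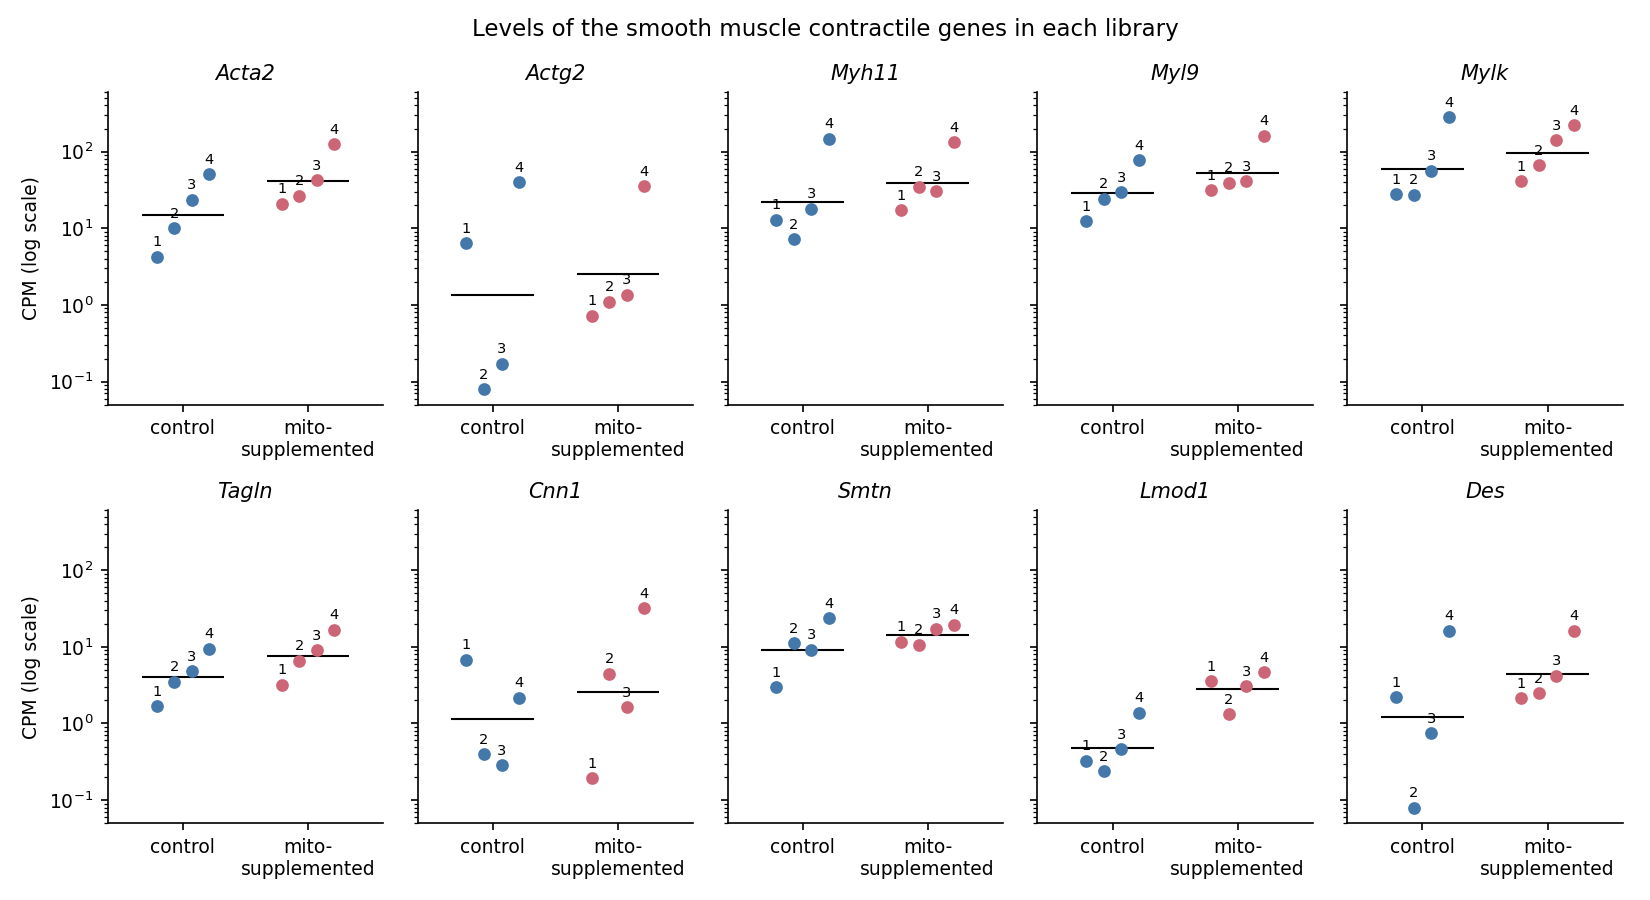
Levels of the 10 smooth muscle contractile genes in CPM on a log axis, with 1 point per library, the replicate number above each point and the geometric mean of each group as a black line (n = 4 each). Replicate 4 is the highest control for 9 of the genes and the highest mito-supplemented library for all 10, and the groups overlap in each panel.

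The proportion of visceral to vascular smooth muscle actin differed between libraries far more than between groups. Per kilobase of exon, the ratio of Actg2 to Acta2 was 2.12 in control replicate 1 and 1.12 in control replicate 4. It was 0.0112 and 0.0102 in control replicates 2 and 3, with 95% Poisson intervals for the Actg2 counts that give 0.000283 to 0.0624 and 0.00211 to 0.0299. In mito-supplemented replicates 1 to 4, it was 0.0493, 0.0591, 0.0452 and 0.398. Control replicates 1 and 4 thus held at least as much Actg2 as Acta2 per length, and this ratio does not depend on the normalisation between libraries.

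Myh11 encodes the smooth muscle myosin heavy chain, the most restricted marker of the lineage among these genes. Its level was 13.0, 7.21, 17.9 and 148 CPM in control replicates 1 to 4, and 17.2, 34.7, 30.4 and 134 CPM in mito-supplemented replicates 1 to 4. Replicate 4 of each group had a similar level, and the remaining 6 libraries lay between 7.21 and 34.7 CPM. Control replicates 3 and 4, whose label codes begin alike, differed 8.25-fold. Control replicates 1 and 2, which also share a code start, differed 1.80-fold. Among mito-supplemented replicates 1 to 3, which share another, the highest was 2.01-fold above the lowest. The log2 fold change was 0.22 (95% confidence interval -1.93 to 2.37; adjusted p = 0.951, edgeR quasi-likelihood test). Its sign was negative without control replicate 1, 2 or 3 (-0.062, -0.13 and -0.046) as well as without mito-supplemented replicate 4 (-0.72), and it was 2.10 without control replicate 4. The gene lies on chromosome 16, from 14194535 to 14291372. The non-muscle heavy chain genes Myh9 and Myh10 serve as a scale within each library. Per kilobase of exon, the ratio of Myh11 to Myh9 was 0.148, 0.0543, 0.139 and 1.29 in control replicates 1 to 4, against 0.109, 0.376, 0.373 and 1.49 in mito-supplemented replicates 1 to 4. Smooth muscle myosin thus exceeded Myh9 per length in replicate 4 of each group and stayed below it in the other 6 libraries. Against Myh10, the ratio reached 0.403 and 0.296 in these same libraries and lay between 0.0158 and 0.131 elsewhere.

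Myl9 encodes the regulatory light chain of smooth muscle myosin. Its level was 12.3, 24.3, 29.5 and 77.0 CPM in control replicates 1 to 4, and 31.2, 39.3, 40.8 and 161 CPM in mito-supplemented replicates 1 to 4. The mito-supplemented libraries lay above 3 of the 4 controls, and control replicate 4 lay above 3 of the 4 mito-supplemented libraries. The log2 fold change was 0.93, with a standard error of 0.68 and an adjusted p value of 0.733 in edgeR's quasi-likelihood test. It was 0.085 without mito-supplemented replicate 4. Mylk, the kinase that phosphorylates this chain, had 28.1, 27.6, 56.5 and 279 CPM in control replicates 1 to 4, and 41.2, 66.8, 141 and 223 CPM in mito-supplemented replicates 1 to 4. The highest library was a control, the lowest 2 were controls as well, and the mito-supplemented libraries lay between them. The log2 fold change of Mylk was 0.27 (95% confidence interval -1.51 to 2.06). It was -0.0071 and -0.034 without control replicates 1 and 2, with -0.20 when mito-supplemented replicate 4 was left out. Leaving out control replicate 4 gave 1.68.

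Tagln, Cnn1, Smtn and Lmod1 encode proteins that bind the actin filament. Tagln, or transgelin, ranged from 1.68 CPM in control replicate 1 to 16.6 CPM in mito-supplemented replicate 4, with a median of 5.69 CPM over the 8 libraries. Its order of libraries was close to that of Acta2. Antisense gene Gm48529 overlaps 62.4% of its exon bases, and since the strand setting of the counting is not given in the sources used here, reads of the pair cannot be told apart and the Tagln counts are uncertain. Smtn, or smoothelin, ranged from 2.95 CPM in control replicate 1 to 23.5 CPM in control replicate 4, and the mito-supplemented libraries lay within a narrow range of 10.7 to 19.4 CPM. The processed transcript Gm11946 overlaps 16.3% of its exon bases on the other strand. The log2 fold changes of Tagln and Smtn were 0.88 and 0.34, both with 95% confidence intervals that included 0.

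Cnn1 encodes calponin 1, which binds actin and restrains the myosin ATPase. Its level was 6.81, 0.396, 0.286 and 2.17 CPM in control replicates 1 to 4, and 0.194, 4.43, 1.63 and 32.1 CPM in mito-supplemented replicates 1 to 4. The highest control was replicate 1, in which Acta2 was at its lowest, and control replicates 2 and 3 and mito-supplemented replicate 1 held 5, 5 and 4 counts. These are the 3 libraries with high red cell markers. Its log2 fold change was 1.97 (95% confidence interval -1.19 to 5.13). Without mito-supplemented replicate 4, which held 461 of the 752 Cnn1 counts, it was -0.17.

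Lmod1 encodes leiomodin 1, which nucleates actin filaments in smooth muscle. It had 8, 3, 8 and 7 counts in control replicates 1 to 4, and 73, 19, 67 and 67 counts in mito-supplemented replicates 1 to 4. As CPM, these were 0.328, 0.238, 0.458 and 1.38 in controls, and 3.54, 1.32, 3.04 and 4.66 in mito-supplemented samples. The groups overlapped by a single pair, since control replicate 4 lay just above mito-supplemented replicate 2, and the 95% Poisson interval of control replicate 4 ran from 0.555 to 2.85 CPM. Mean levels were 0.601 ± 0.528 CPM and 3.14 ± 1.39 CPM (SD, n = 4 each). Its log2 fold change was 2.45, with a 95% confidence interval of 0.41 to 4.48, the only interval of the 10 members that did not include 0. Its unadjusted p value was 0.0231 and its adjusted p value 0.626 in edgeR's quasi-likelihood test over all genes, so that Lmod1 did not pass. The adjusted p value ranged from 0.0403 to 0.972 over the alternatives, with the lowest from limma-voom and its sample quality weights, by which it was called, and the log2 fold change ranged from 1.88 to 3.19. The gene lies on chromosome 1, from 135324807 to 135368065.

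Des encodes desmin, the intermediate filament of smooth, cardiac and skeletal muscle and of many pericytes. Its level was 2.22, 0.0793, 0.743 and 16.2 CPM in control replicates 1 to 4, and 2.13, 2.49, 4.17 and 16.2 CPM in mito-supplemented replicates 1 to 4. Replicate 4 of each group stood at nearly the same level, and control replicate 2 held 1 count, with a 95% Poisson interval of 0.00201 to 0.442 CPM. For Des, the log2 fold change was 0.41 (95% confidence interval -2.42 to 3.23), which became -0.0038 when control replicate 2 was left out and -0.65 when mito-supplemented replicate 4 was. The gene lies on chromosome 1, from 75360329 to 75368579.

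Between the groups, 0 of the 10 members were called by edgeR's quasi-likelihood test at an adjusted p value under 0.05 and a fold change of at least 2, and the same test called 0% of the 13873 genes tested. At an unadjusted p value under 0.05, 1 member, Lmod1, was higher in mito-supplemented samples and 0 were lower, where 5.31% and 2.40% of all genes tested were higher and lower. The count of higher members was 3 with limma-voom (19.2% of all genes higher), library size alone (9.28%) or blocking on replicate number (5.26%). It was 0 with counts summed over libraries whose codes begin alike (5.51%). The likelihood ratio test and DESeq2 each called 0 members, and 0.418% and 1.02% of all genes. DESeq2 gave no p value for Myh11 and Des. Limma-voom with sample quality weights called 1 member, Lmod1, and 18.6% of all genes, so that its call for Lmod1 stood at a share below this background. Groups that did not overlap were found for 0 of the 10 members, and for 3.00% of all genes tested with mito-supplemented samples higher and 2.03% with them lower. The log2 fold change was above 0 for 9 of the 10 members, with Actg2 as the exception, and for 44.9% of all genes tested. The median was 0.64 for the members and -0.098 for all genes tested. This number of positive members ranged from 5 without mito-supplemented replicate 4 to 10, and the median from -0.043 without the same library to 2.02 without control replicate 4. Without control replicate 4, 5 members were higher at an unadjusted p value under 0.05, as were 8.98% of all genes tested, and 2 had groups that did not overlap, as had 8.32% of all genes with mito-supplemented samples higher. Leaving out mito-supplemented replicate 2 instead separated the groups of 1 member, Lmod1, and of 3.35% of all genes in that direction. Without control replicate 2, control replicate 3 or mito-supplemented replicate 1, 0 members had an unadjusted p value under 0.05, where 3.56%, 4.08% and 7.06% of all genes were higher at that value. When libraries were scaled by their size alone, the median was 0.17 for all genes tested and 1.37 for the members, and all 10 members were above 0.

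**Figure D2:**
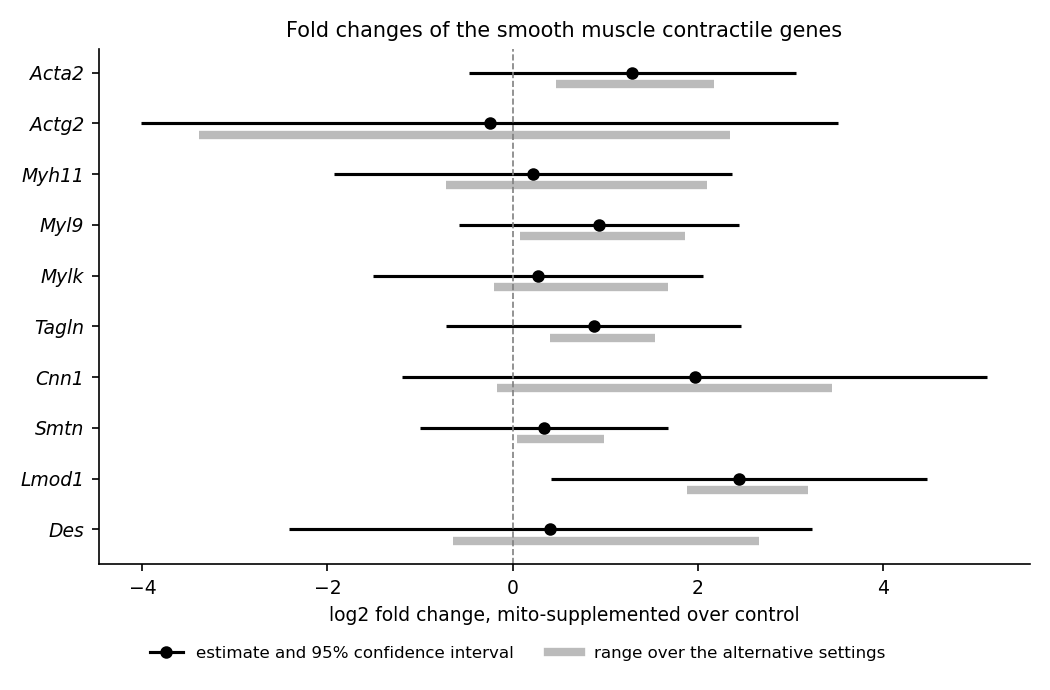
Log2 fold change of each smooth muscle contractile gene, mito-supplemented over control (n = 4 each), with the 95% confidence interval in black and the range over 20 alternative settings in grey. The interval of Lmod1, from 0.41 to 4.48, is the only one that does not cross 0, and the grey ranges of Actg2, Myh11, Mylk, Cnn1 and Des cross it.

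The spread within a group exceeded the difference between the group means for most members. Within controls, the highest library was 11.8-fold above the lowest for Acta2, 20.5-fold for Myh11, 10.1-fold for Mylk and 5.63-fold for Tagln, while the means of the groups differed 2.44-fold, 1.16-fold, 1.21-fold and 1.82-fold for the same genes. Within mito-supplemented samples, the highest library was 6.05-fold above the lowest for Acta2 and 7.75-fold for Myh11. Control replicate 4 was above control replicate 3 for all 10 members, by 1.97-fold for Tagln and 4.95-fold for Mylk, although the codes of these libraries begin alike. Control replicates 1 and 2, whose codes begin alike as well, differed 2.07-fold for Tagln and 1.02-fold for Mylk. Mito-supplemented replicates 1 to 3 share a code start, and their highest was 2.81-fold and 3.43-fold above their lowest for these genes. The code of mito-supplemented replicate 4 begins differently. As a share of the counts outside the rRNA genes, which does not use the normalisation, the members held 0.128% in control replicate 4 and 0.149% in mito-supplemented replicate 4, and 0.0130% to 0.0626% in the other 6 libraries. Control replicate 4 was among the highest 2 libraries for 8 of the members and mito-supplemented replicate 4 for 10. With scaling by library size alone, which leaves out the TMM factor, these counts were 3 and 10, and Tagln had 4.62 and 4.63 CPM in control replicates 3 and 4. The spread within controls was then narrower, at 5.91 to 24.6 CPM for Acta2, 6.56 to 72.2 for Myh11 and 25.1 to 137 for Mylk. Tagln ran from 2.33 to 4.63 CPM in controls and 3.35 to 18.0 CPM in mito-supplemented samples. Its spread within controls was then smaller than the difference between the group means.

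**Figure D3:**
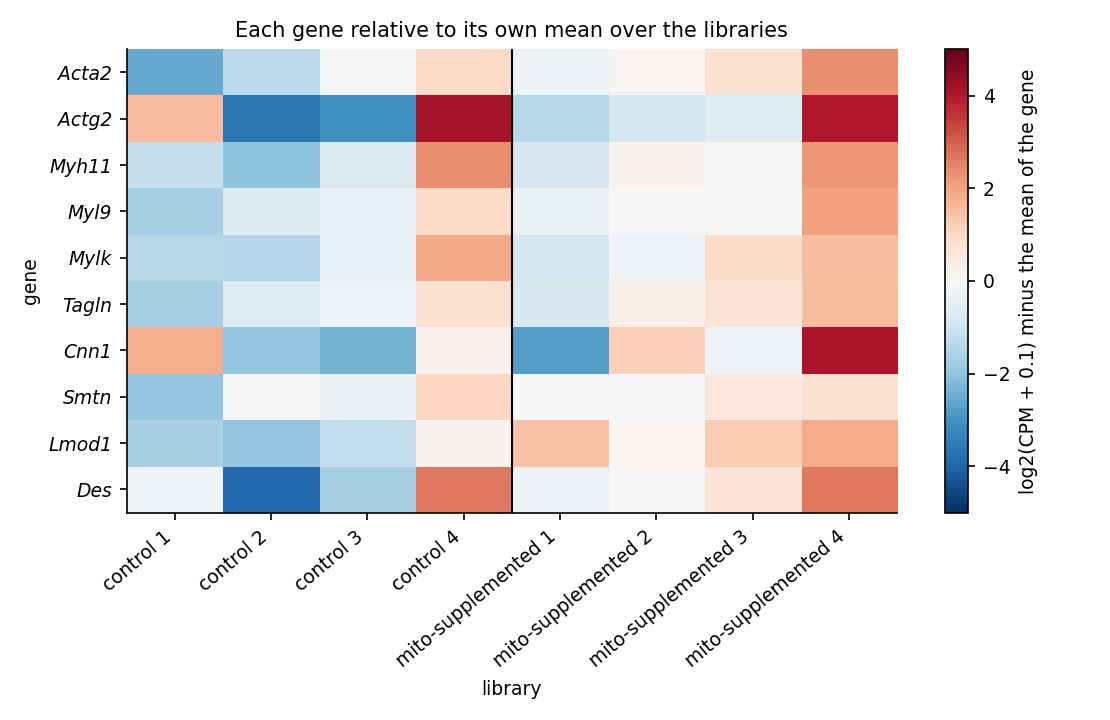
Each smooth muscle contractile gene relative to its own mean over the 8 libraries, as log2(CPM + 0.1) minus that mean, with red above and blue below it. The columns of replicate 4 in either group are red for each gene, whereas control replicate 1 is red for Actg2 and Cnn1 and blue for the other 8.

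Levels were compared between members per kilobase of exon. Myl9 was the most abundant, with a mean of 44.7 CPM per kilobase over the 8 libraries, and it exceeded Acta2, at 17.3, in 8 of 8 libraries. Acta2 exceeded Mylk, at 9.59, in 6 of 8. Actg2 (6.84), Myh11 (6.61), Tagln (3.45), Smtn (3.01), Cnn1 (2.19) and Des (1.47) followed, and Lmod1 was lowest at 0.474 CPM per kilobase. From Mylk to Lmod1, neighbours in this order did not differ beyond their spread, as the mean log2 step between them was smaller than its SD over libraries. The order of the means was also set by replicate 4 of each group for Actg2, which lay below Myh11 in 5 of 8 libraries. The Myl9 light chain made up 37.9% to 62.5% of the summed CPM per kilobase of the members, and Acta2 made up 7.62% to 23.4%. Actg2 made up 16.1% in control replicate 1 and 14.7% in control replicate 4, 7.97% in mito-supplemented replicate 4, and 0.152% to 1.09% in the others. Cnn1 made up 9.77% in control replicate 1, 4.09% in mito-supplemented replicate 4 and 2.47% or less elsewhere. The shares of Actg2 and Cnn1 were thus highest in control replicate 1.

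**Figure D4:**
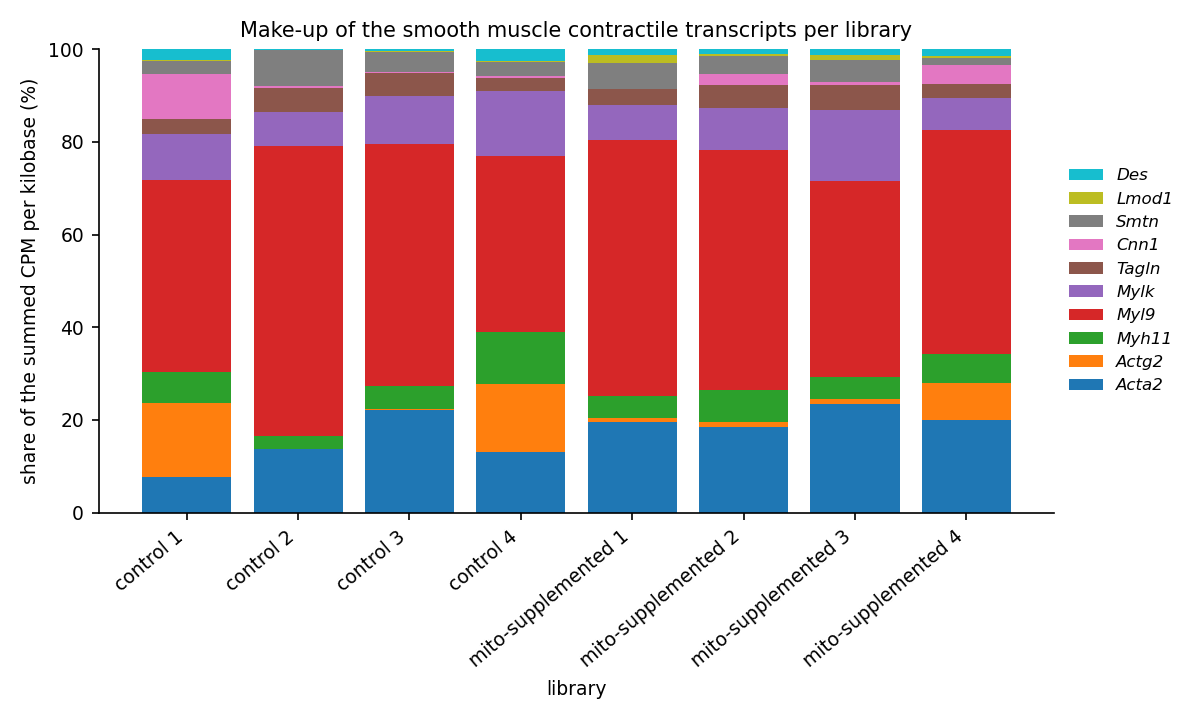
Share of each gene in the summed CPM per kilobase of the 10 smooth muscle contractile genes, in percent, for each library. Myl9 is the largest part in each library, from 37.9% to 62.5%, and Actg2 is visible mainly in control replicates 1 and 4 and in mito-supplemented replicate 4.

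Members were compared by the Pearson correlation of log2 CPM over the 8 libraries, whose values share depth and normalisation within a library. Over the 45 pairs, the median r was 0.71, the range was 0.022 to 0.97, and 17 pairs had an r above 0.8. Acta2, Tagln and Myl9 formed the closest group, with r of 0.97 for Acta2 with Tagln and 0.96 for Acta2 with Myl9. Myh11 ran closely with Mylk (0.95) and Des (0.92), and Des with Actg2 (0.91). Cnn1 was the least typical member, with r of 0.77 with Actg2, 0.36 with Acta2 and 0.022 with Smtn. Of the genes outside the members, the 5 whose log2 CPM was most like the mean of the members were Rgs2 (r = 0.99), Cdyl2 (0.98), Nxt2 (0.98), Ptms (0.98) and Arf4 (0.98; n = 8 libraries), and 1.56% of the other genes tested had an r above 0.9. Rgs2, a regulator of G protein signalling, had 40.3, 26.7, 33.1 and 91.6 CPM in control replicates 1 to 4, and 45.0, 49.7, 71.3 and 119 CPM in mito-supplemented replicates 1 to 4. Its highest libraries were again replicate 4 of each group.

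Myocardin is the partner of serum response factor that is restricted to smooth and cardiac muscle. Its gene Myocd had 2.05, 5.95, 10.6 and 73.8 CPM in control replicates 1 to 4, and 9.80, 14.2, 17.7 and 64.5 CPM in mito-supplemented replicates 1 to 4. The order of libraries was that of Acta2 in controls and in mito-supplemented samples, with replicate 4 highest in each. Srf itself ranged from 16.0 to 50.8 CPM, with 46.9 CPM in control replicate 1, where most members were low. The broadly expressed relatives Mrtfa and Mrtfb ranged from 14.9 to 79.1 CPM and from 46.6 to 288 CPM, and both were highest in control replicate 1. Of the list of 10 regulators of this programme, 0 were called by the quasi-likelihood or the likelihood ratio test, beside 0% and 0.418% of all genes. Of these 10 regulators, 7 had a log2 fold change above 0, beside 44.9% of all genes tested. At an unadjusted p value under 0.05, 2 were higher, Gata6 and Klf4, beside 5.31% of all genes. Their median was 0.13, and leaving out each library in turn gave a lowest value of -0.098 (control replicate 2 left out) and a highest of 0.53 (control replicate 4 left out). It was also below 0 without control replicate 3 (-0.011) or mito-supplemented replicate 4 (-0.0086), and it was 0.46 without control replicate 1, 0.42 and 0.25 without mito-supplemented replicates 1 and 3, and 0.73 in limma-voom. Gata6, among the most abundant genes of that list, had means of 48.6 ± 43.8 and 116 ± 27.0 CPM in the control and mito-supplemented groups (SD, n = 4 each).

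Other genes of the contractile apparatus were read from 2 lists. Of 20 further genes of filaments and of their anchoring plaques, 18 were tested and 14 of these had a log2 fold change above 0, beside 44.9% of all genes tested. The median was 0.71, with 0.43 when mito-supplemented replicate 4 was left out and 1.09 when control replicate 4 was. The quasi-likelihood and the likelihood ratio tests called 0 of them, beside 0% and 0.418% of all genes. At an unadjusted p value under 0.05, 3 were higher, beside 5.31% of all genes tested, and 1 had groups that did not overlap, beside 3.00% of all genes with mito-supplemented samples higher. Flna, which crosslinks actin filaments, had 79.9, 158, 177 and 272 CPM in control replicates 1 to 4, and 344, 502, 445 and 534 CPM in mito-supplemented replicates 1 to 4. It was the gene of this list without overlap, and its adjusted p value was 0.544 in edgeR's quasi-likelihood test. Cald1, or caldesmon, had means of 139.9 ± 136 and 379 ± 181 CPM, and Tpm1, a tropomyosin, of 187 ± 120.3 and 269.6 ± 66.5 CPM, in the control and mito-supplemented groups (SD, n = 4 each). Of 21 genes of contraction signalling, 19 were tested and 11 had a log2 fold change above 0, beside 44.9% of all genes tested. At an unadjusted p value under 0.05, 1 of the 19 (Pde5a) was higher, a share near the 5.31% of all genes. Both edgeR tests called 0 of the 19, beside 0% and 0.418% of all genes. The median was 0.22, with -0.020 when mito-supplemented replicate 1 was left out and 0.35 when mito-supplemented replicate 2 was. It was 0.51 with scaling by library size alone and 0.065 with limma-voom. The 3 most abundant were Itpr1, Rock1 and Rock2. Ppp1r14a, an inhibitor of the phosphatase that reverses the action of Mylk, had 0 counts in 7 libraries. The summed level of the first list followed the members (r = 0.90, rho = 0.83), and that of the second followed them weakly (r = 0.21, rho = 0.31; n = 8 libraries each).

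The non-muscle counterparts of the members were compared with them within each library. Their 12 genes summed to 1718 to 4250 CPM per library, 41.9% of it Actb, and 10 of the 12 had a log2 fold change above 0, beside 44.9% of all genes tested. The quasi-likelihood and likelihood ratio tests called 0 of the 12, beside 0% and 0.418% of all genes, and 1, Myl12b, was higher at an unadjusted p value under 0.05, beside 5.31%. Per kilobase of exon, the ratio of Acta2 to Actb was 0.00516, 0.0130, 0.0277 and 0.0488 in control replicates 1 to 4, against 0.0194, 0.0388, 0.0479 and 0.0921 in mito-supplemented replicates 1 to 4. The ratio of Myl9 to Myl12a ran from 8.31 to 43.5, whereas the more abundant counterpart Myl12b, at 17.6 to 92.1 CPM, had no exon length here and was not compared with Myl9. The groups overlapped in all 8 ratios formed between members and their counterparts or each other.

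Markers of other cell types that share the vessel wall or the stroma moved with the members across libraries. Stroma markers summed to 426, 506, 787 and 2619 CPM in control replicates 1 to 4, and 1047, 1075, 2881 and 2478 CPM in mito-supplemented replicates 1 to 4, with the collagen gene Col3a1 as the most abundant. Endothelial markers summed to 27.2, 47.0, 61.1 and 235 CPM in the controls and 105, 229, 207 and 221 CPM in the mito-supplemented libraries, with Kdr as the most abundant. The sums followed the mean level of the members at r = 0.86 and 0.79 (rho = 0.83 and 0.81; n = 8 libraries, which share depth and normalisation), and in both lists control replicate 4 was the highest control. In the mito-supplemented group, the highest stroma sum was in replicate 3 and the highest endothelial sum in replicate 2. Kdr alone made 193 of the 229 CPM in that library, and 62.5% of the endothelial sum pooled over all libraries. Within that group, Pecam1, Cdh5, Tek, Emcn, Eng, Flt1 and Cldn5 were each highest in replicate 3, and Esam in replicate 1. The endothelial peak in replicate 2 was thus that of Kdr, and the correlation of this sum without Kdr was not tested. All 10 stroma genes and 6 of the 8 endothelial genes tested had a log2 fold change above 0, beside 44.9% of all genes tested. At an unadjusted p value under 0.05, 0 stroma genes and 1 endothelial gene were higher, beside 5.31% of all genes. The quasi-likelihood test called 0 of them, whereas the likelihood ratio test called 0 stroma genes and 1 endothelial gene, Esam (0.884 ± 0.402 against 8.77 ± 4.41 CPM, SD, n = 4 each), beside 0.418% of all genes.

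Pericyte markers, which mark the mural cells of small vessels, summed to 40.4, 22.4, 21.2 and 59.2 CPM in control replicates 1 to 4, and 19.5, 38.2, 90.8 and 63.4 CPM in mito-supplemented replicates 1 to 4, with Pdgfrb as the most abundant over all libraries together. Cox4i2, which did not pass the filter, made 25.7 CPM of the sum in control replicate 1, where Pdgfrb had 0.779 CPM. The highest gene was Mcam in control replicate 3, Cspg4 in control replicate 4, and Abcc9 in mito-supplemented replicates 1 and 3. Of these 11 genes, 5 passed the filter and 3 of them had a log2 fold change above 0, beside 44.9% of all genes tested. At an unadjusted p value under 0.05, 1 (Mcam) was higher, beside 5.31% of all genes. Both edgeR tests called 0 of the 5, beside 0% and 0.418% of all genes. Rgs5, a defining pericyte gene, was at 0 in control replicates 1 and 2 and reached 3.75 CPM at most. Surface epithelium markers summed to 120.3, 54.6, 43.5 and 395 CPM in the controls and 334, 869, 365 and 648 CPM in the mito-supplemented libraries, with Upk3b as the most abundant. All 10 had a log2 fold change above 0 and 6 were higher at an unadjusted p value under 0.05, where 44.9% and 5.31% of all genes tested were. The likelihood ratio test called 1, Upk1b, and 0.418% of all genes, and the quasi-likelihood test called 0. Granulosa markers, given above, had 6 of 8 genes with a log2 fold change above 0 and 2, Nr5a1 and Irx3, higher at an unadjusted p value under 0.05, beside the same 44.9% and 5.31% of all genes, and both edgeR tests called 0. The pericyte, surface epithelium and granulosa sums followed the members at r = 0.75, 0.76 and 0.81 (rho = 0.71, 0.83 and 0.81; n = 8 libraries). The part of these cell types in the levels of the smooth muscle contractile genes was not tested.

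**Figure D5:**
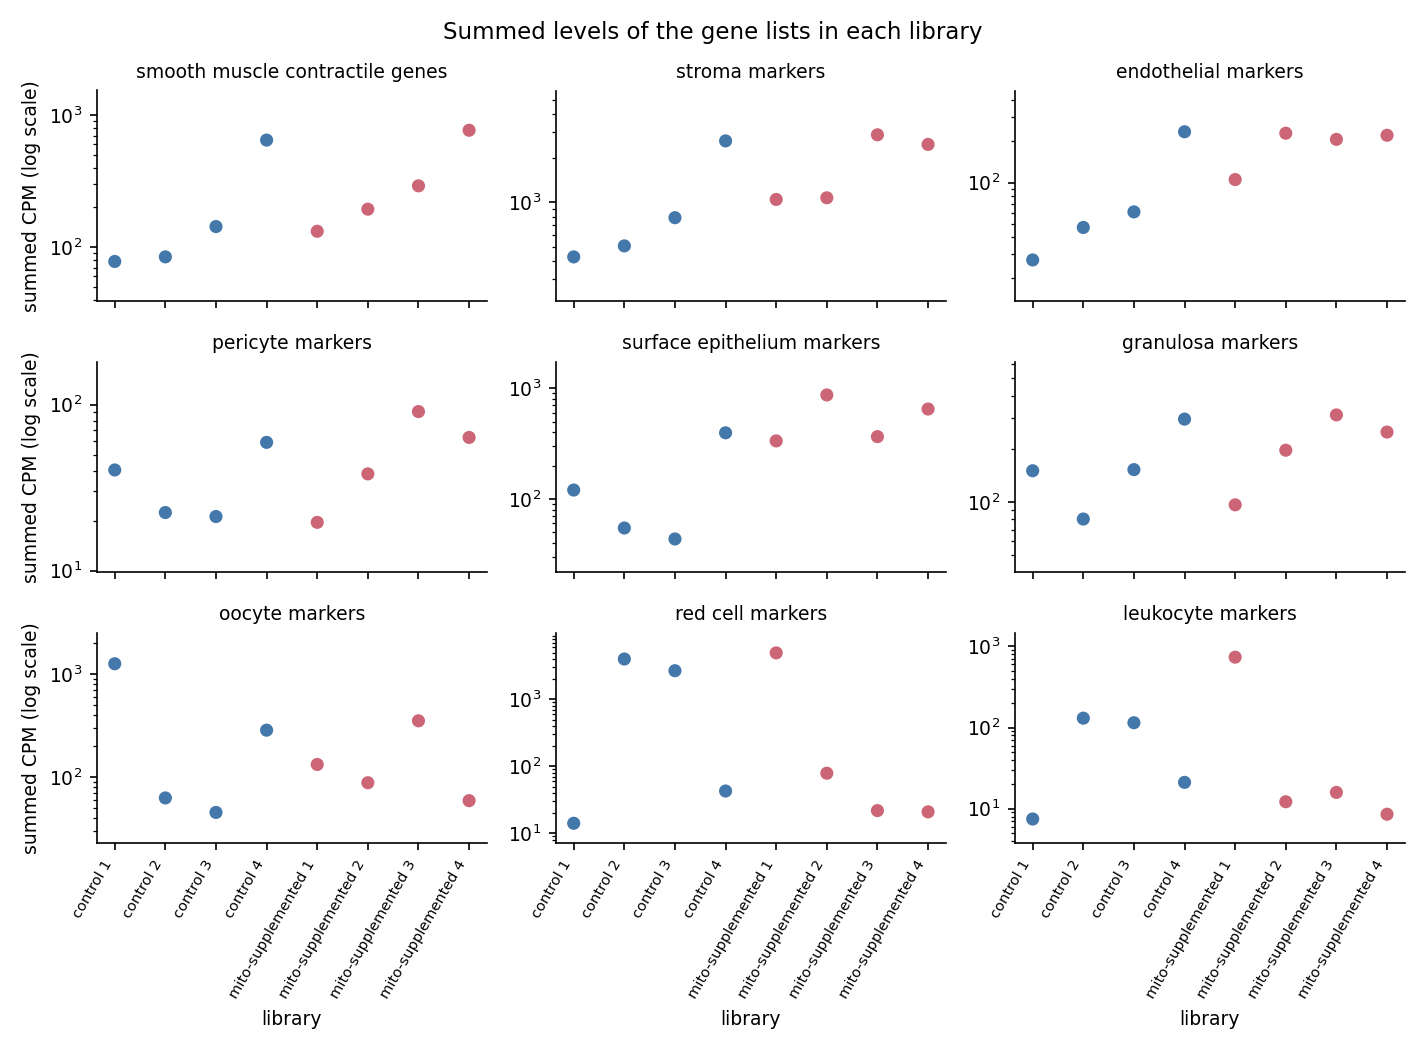
Summed level of the smooth muscle contractile genes and of 8 marker lists in each library, in CPM on a log axis, with controls in blue and mito-supplemented libraries in red. The smooth muscle sum is highest in replicate 4 of each group. The stroma and endothelial sums are highest in replicate 4 among controls but in mito-supplemented replicates 3 and 2. Kdr alone makes 193 of the 229 CPM of the endothelial sum in mito-supplemented replicate 2. The red cell and leukocyte sums are high in control replicates 2 and 3 and in mito-supplemented replicate 1.

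Oocyte, red cell and leukocyte markers did not run with the members. The oocyte sum had an r of 0.0077 (rho = 0.17), the red cell sum of -0.65 (rho = -0.50) and the leukocyte sum of -0.53 (rho = -0.43; n = 8 libraries each). Of the 9 oocyte, 4 red cell and 5 leukocyte genes tested, 0 were called by the quasi-likelihood or the likelihood ratio test, beside 0% and 0.418% of all genes. Their unadjusted p value was under 0.05 for 0 of them, where 5.31% and 2.40% of all genes tested were higher and lower. The log2 fold change was above 0 for 0 of the oocyte, 0 of the red cell and 5 of the leukocyte genes, beside 44.9% of all genes. The median log2 fold change of the oocyte genes was -1.65, but 0.33 without control replicate 1 and 1.57 with limma-voom and its sample quality weights. Without control replicates 2 and 3 and mito-supplemented replicate 1, a setting chosen after the data were seen, the median log2 fold change of the members was 0.57, 6 of the 10 were above 0 and 0 were called. Among the striated muscle markers, Ttn was the most abundant and Myog was at 0 in all libraries. Tnni3, Actc1, Tnni1 and Tnnt1 reached 20.02, 19.7, 19.5 and 18.6 CPM in their highest libraries, above the 16.6 CPM of Tagln, and Acta1 reached 0.801 CPM. These CPM are not divided by exon length. Per kilobase of exon, the highest values of Tnni3, Actc1, Tnni1 and Tnnt1 were 9.71, 12.2, 5.41 and 8.42. That of Tagln was 8.36, so that Tnni1 lay below it and Tnnt1 close to it. The quasi-likelihood and likelihood ratio tests called 0 genes of this list, beside 0% and 0.418% of all genes. An unadjusted p value under 0.05 was found for 0 of the 6 genes tested, where 5.31% and 2.40% of all genes were higher and lower. Of these 6, 4 had a log2 fold change above 0, beside 44.9% of all genes tested.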

How the data were processed

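The values used are the counts per gene deposited by the authors, for 26586 gene symbols. Per the labels and the authors, reads were trimmed with Trim Galore 0.4.4, mapped to GRCm38 with STAR 2.5.3a, counted with featureCounts and analysed with edgeR 3.20.9. The annotation release, the strand setting, the treatment of multi-mapping reads and the removal of PCR duplicates are not given in the sources used here.

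The groups were compared by the quasi-likelihood test of edgeR 4.0.16 (R 4.3.3) after TMM scaling, over the 13873 genes that its default filter kept, and p values were adjusted by the Benjamini-Hochberg method. Calls needed an adjusted p value below 0.05 together with a change of at least 2-fold. Levels are CPM after TMM scaling, and log2 CPM add a prior count of 2. The standard error of a log2 fold change is its size divided by the square root of F. Levels per kilobase use the union of exons in GENCODE M21. The alternatives were the likelihood ratio test, DESeq2 1.42.0, limma 3.58.1 with sample quality weights, other normalizations and filters, blocking on replicate number, sums of counts over libraries whose label codes begin alike, and leaving out each library in turn. Leaving out the 3 libraries high in Slc4a1 was added after the data were seen.

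The genes named are the 10 members, genes of 13 further lists, and the 5 genes most like the members. Members and lists were chosen with earlier results of these data known. Of 162 listed genes, 161 were matched, 7 by an older symbol. The code was tested on simulated counts. The control library that the authors excluded was not analysed here. Figures were drawn with matplotlib 3.10.9 in Python 3.11.15.

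Bulk counts from 4 libraries per group limit what can be said. Libraries of a group varied widely (common biological coefficient of variation 0.771), and differences smaller than the confidence intervals were not detectable. The libraries hold RNA of several cell types in unequal proportions, and neither protein nor the position of any cell was measured.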

Additional observations from a re-analysis of the deposited data

Results flagged for a closer look

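In 170 groups of 4 libraries examined, 13 held a library far from the other 3, where chance gives about 1 in 20, or 8.5. Among the members, Myl9 in mito-supplemented replicate 4 was at a log2 CPM of 7.33, where the rest of its group lay between 4.97 and 5.35. Actg2 in the same library was at 5.16, against -0.23 to 0.57. The log2 ratio of Actg2 to Acta2 was -1.33 there, against -4.47 to -4.08, and the summed log2 level of the non-muscle counterparts was 12.05, against 11.34 to 11.38.

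In control replicate 4, Gata6 was at a log2 CPM of 6.84, against 4.57 to 4.90 in the other controls. In control replicate 1, Mrtfa was at 6.31, against 3.91 to 4.25, Myh10 at 7.09, against 8.98 to 9.30, and Eng at -0.91, against 3.35 to 4.21. In mito-supplemented replicate 2, Lhx9 was at 7.30, against 6.09 to 6.28.

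In mito-supplemented replicate 1, Lyz2 was at a log2 CPM of 9.32, against 1.10 to 2.12, the leukocyte markers summed to 9.53, against 3.10 to 3.99, and the endothelial markers to 6.72, against 7.69 to 7.84. Mito-supplemented replicate 3 had a log2 TMM factor of 0.46, and the rest of its group 0.066 to 0.12. The causes were not tested.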

How the results depend on the processing

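Over 20 alternatives, Acta2, Tagln, Myl9, Smtn and Lmod1 kept a log2 fold change above 0, with ranges of 0.47 to 2.17, 0.41 to 1.54, 0.085 to 1.87, 0.045 to 0.99 and 1.88 to 3.19. The genes called in place of 0 were 58 with the likelihood ratio test, 141 with DESeq2 and 2578 with limma-voom and sample quality weights. The members called were 1 with limma-voom, which called 18.6% of all genes, and 0 in the other alternatives. The member called was Lmod1 (adjusted p = 0.0403 with limma-voom, with a range of 0.0403 to 0.972 over the alternatives).

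Members whose groups did not overlap numbered 2 (6.62% of all genes) with scaling by library size alone and 4 (20.8%) with counts summed over libraries whose codes begin alike. Leaving out each library in turn gave 0 to 2 such members, with 2 without control replicate 4 (8.32% of all genes) and 1 without mito-supplemented replicate 2 (3.35%). The median log2 fold change of the members ranged from -0.043 to 2.02 when each library was left out.

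Actg2 changed sign in 8 alternatives, to 2.36 with limma-voom, 0.57 with library size alone, 0.67 with the replicate block and 1.52 with summed counts. It was also 2.13 without control replicate 4, and 0.17, 0.13 and 0.15 without mito-supplemented replicates 1, 2 and 3. Without control replicates 1, 2 and 3, Myh11 was at -0.062, -0.13 and -0.046, without control replicates 1 and 2, Mylk was at -0.0071 and -0.034, and without control replicate 2, Des was at -0.0038. Without mito-supplemented replicate 4, Myh11, Cnn1, Des and Mylk were at -0.72, -0.17, -0.65 and -0.20. Without the 3 libraries high in Slc4a1, chosen after seeing the data, Myh11, Des and Mylk were at -0.27, -0.25 and -0.086. When each library was left out, the highest values of Myh11, Cnn1, Des and Mylk were 2.10, 3.46, 2.62 and 1.68, and the lowest of Actg2 was -3.39. The cause was not tested.

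The replicate block treats equal replicate numbers as a pairing. The deviations of such libraries from their group means correlated at -0.244, -0.191, -0.334 and 0.222 across genes. Values of mixed sign cannot settle whether the numbers pair the samples, and the labels do not say. With 1 to 8 counts for Actg2, Des, Cnn1 or Lmod1 in several libraries, depth limits what their levels can show.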

Other observations

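Ttn, which encodes the giant protein titin of striated muscle, had 8629, 1440, 692 and 5290 CPM in control replicates 1 to 4, and 803, 2458, 1598 and 49.99 CPM in mito-supplemented replicates 1 to 4. Pooled over the 8 libraries, it made up 98.9% of the summed level of the striated muscle markers, but in mito-supplemented replicate 4 that sum was 112 CPM, most of it from other genes. The lowest level was in mito-supplemented replicate 4, the library in which 6 of the 10 smooth muscle contractile genes were at their highest.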
